A study of Ovis aries with 40 samples.

Results

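Longissimus dorsi muscle of 3 Texel fetuses (T85) was compared with that of 3 Ujumqin fetuses (U85) at 85 d of gestation. The fetuses were chosen by the breed and stage in their titles, which gave 6 of the 31 fetal arrays and 6 of the 40 arrays of the series. The Texel is a heavily muscled breed. The Ujumqin, a breed native to China, carries more fat and less muscle. The study sampled fetuses of both breeds at 5 stages from 70 to 135 d, to set the gene programmes of the breeds side by side. All ewes had been synchronized with hormones and artificially inseminated. Fetuses of 70 and 100 d (T70, U70, T100 and U100) serve here as the ends of a developmental course, and it is asked whether T85 had gone further along it than U85.

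In both breeds 1 of the 3 fetuses of 85 d was female and 2 were male. The labels do not name the dams, so the p-values measure the spread between these fetuses only, and 3 arrays per breed limit the precision. The RNA of each fetus was hybridized to 1 single-colour Agilent sheep array with 15208 spots that were not controls, for 15008 probes. The median processed signal was 583.0 to 616.6 in T85 and 424.1 to 582.8 in U85, and 83.8% to 89.2% and 88.7% to 90.9% of the spots were well above background. T85 replicates 1 and 2 lay on slide 1 with the 3 T70 arrays, whereas T85 replicate 3, the 3 U85 arrays and the 3 U70 arrays lay on slide 2. Slide and breed are therefore partly joined, and the difference within slide 2, which is that of T85 replicate 3 from the 3 U85 fetuses and is also the value with slide as a block, is given beside the main results. Levels are normalized log2 signals, listed in the order of replicates 1, 2 and 3, and differences are T85 minus U85 on the log2 scale.

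Most muscle fibres of the sheep form before birth. As fetal fibres mature, the developmental forms of the sarcomere proteins give way to adult slow or fast forms, and fibres bound for fast contraction take up the enzymes that break down glycogen and glucose. Fast fibres are marked by fast myosin heavy chains, alpha-actinin-3 and the calcium store protein calsequestrin-1, so the level of these transcripts changes steeply while a muscle matures.

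The labelled tissue carried its markers in all 6 fetuses. Of 15 skeletal muscle markers, 7 had a named probe, and their summed level was 20.05, 20.14 and 20.08 in T85 and 20.15, 20.09 and 20.08 in U85, with the troponin TNNC2 the brightest gene. MYOD1, which drives entry into the muscle lineage, read 15.24, 15.51 and 15.50 in T85 and 15.67, 15.46 and 15.07 in U85. The breeds overlapped for MYOD1, and every named probe of the list was well above background on all 6 arrays.

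The arrays did not group by breed over all probes. T85 replicate 3 was nearer to U85 replicates 1 and 2, with which it shares slide 2, by a root mean square log2 difference of 0.454 and 0.482, than to T85 replicates 1 and 2 (0.519 and 0.685). T85 replicate 2 stood furthest from the rest, at 0.685 to 0.816.

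A total of 292 of 14379 tested probes (2.03%) differed by limma at an unadjusted p under 0.05 with 2-fold or more. The study set the same p and fold limits, but with an unequal-variance test and a further limit on the false discovery rate. That test, without the further limit, gave 131 probes here. Of the 292, 138 were higher in T85 and 154 were higher in U85. When arrays were scaled by their 75th percentile in place of quantiles, the split was 165 higher in T85 and 109 higher in U85. The count of 292 fell to 83 (46 and 37) with normexp background correction, which was run with an offset of 50. The offset, added to every signal, narrows the differences of dim probes by arithmetic, whatever their source. A smaller normexp value of a dim probe does not by itself show that its difference is weak. The count was 540 without T85 replicate 3 and 286 without T85 replicate 2. By limma with adjustment over all tested probes, 3 probes (0.0209%) passed, namely EEF1A2, an unnamed probe and a probe that the study's lists name RPL39. The array names few of its probes. Names from the files or the reference were held by 1500 tested probes of 924 genes, and 50 of these probes, from 41 genes, passed the unadjusted threshold, 26 higher in T85 and 24 higher in U85. A further 92 of the 292 probes are named only by the study's own lists, which were drawn from these samples, and 150 have no name here. Within slide 2 the unadjusted count was 264, of which 126 were among the 292. The T85 side is there 1 fetus, assumed to vary like the 3 U85 fetuses, from which all of the spread comes.

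Several genes of fast or mature fibres, named by the study only, were higher in T85. EEF1A2, the form of elongation factor 1 alpha that replaces EEF1A1 in mature muscle and neurons, read 14.91, 15.60 and 15.41 in T85 against 11.61, 11.45 and 11.20 in U85 on probe A_70_P046666. This was 14.8-fold, a log2 difference of 3.89 ± 0.21 (SE, limma adjusted p = 0.00854), and 3.99 within slide 2. The other EEF1A2 probe gave 8.26, 8.99 and 8.76 in T85 and 7.11, 7.29 and 7.38 in U85, a smaller difference of 1.41 ± 0.21 (adjusted p = 0.131), and 0.81 with normexp. Both probes separated the breeds without overlap, but only the former passed adjustment. The difference of EEF1A2 A_70_P046666 was 3.74 to 4.08 when each fetus was left out, but its adjusted p rose to 0.0560 without T85 replicate 3 and to 0.0578, 0.0864 and 0.0831 without U85 replicates 1, 2 and 3, and it was 0.260 with slide as a block. All 3 T85 fetuses stood above all 3 U85 fetuses for 1536 of the 14379 probes (10.7%) and below them for 1569 (10.9%), so lack of overlap alone says little about a single gene.

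ACTN3, which encodes the alpha-actinin of fast fibre Z-discs, read 13.75, 13.36 and 14.05 in T85 and 11.11, 10.32 and 10.98 in U85. The difference was 2.92 ± 0.27 (7.56-fold, adjusted p = 0.0534), just short of the threshold, and 3.25 within slide 2. FBP2, the muscle fructose-bisphosphatase, read 10.55, 9.16 and 8.96 in T85 and 6.12, 5.85 and 6.51 in U85, a difference of 3.40 ± 0.44 (adjusted p = 0.108). TMOD4, a tropomodulin that caps thin filaments in skeletal muscle, was higher by 1.79 ± 0.24 (adjusted p = 0.108) and CASQ1, the fast fibre calsequestrin, by 1.20 ± 0.14 (adjusted p = 0.0749). None of these 4 genes overlapped between the breeds, and within slide 2 the differences were 2.80 for FBP2, 1.85 for TMOD4 and 1.03 for CASQ1. Their probes, like those of EEF1A2, are named by the study's lists only, and the study chose them on these samples. These names are therefore no independent evidence that fast fibre genes were higher.

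**Figure D1:**
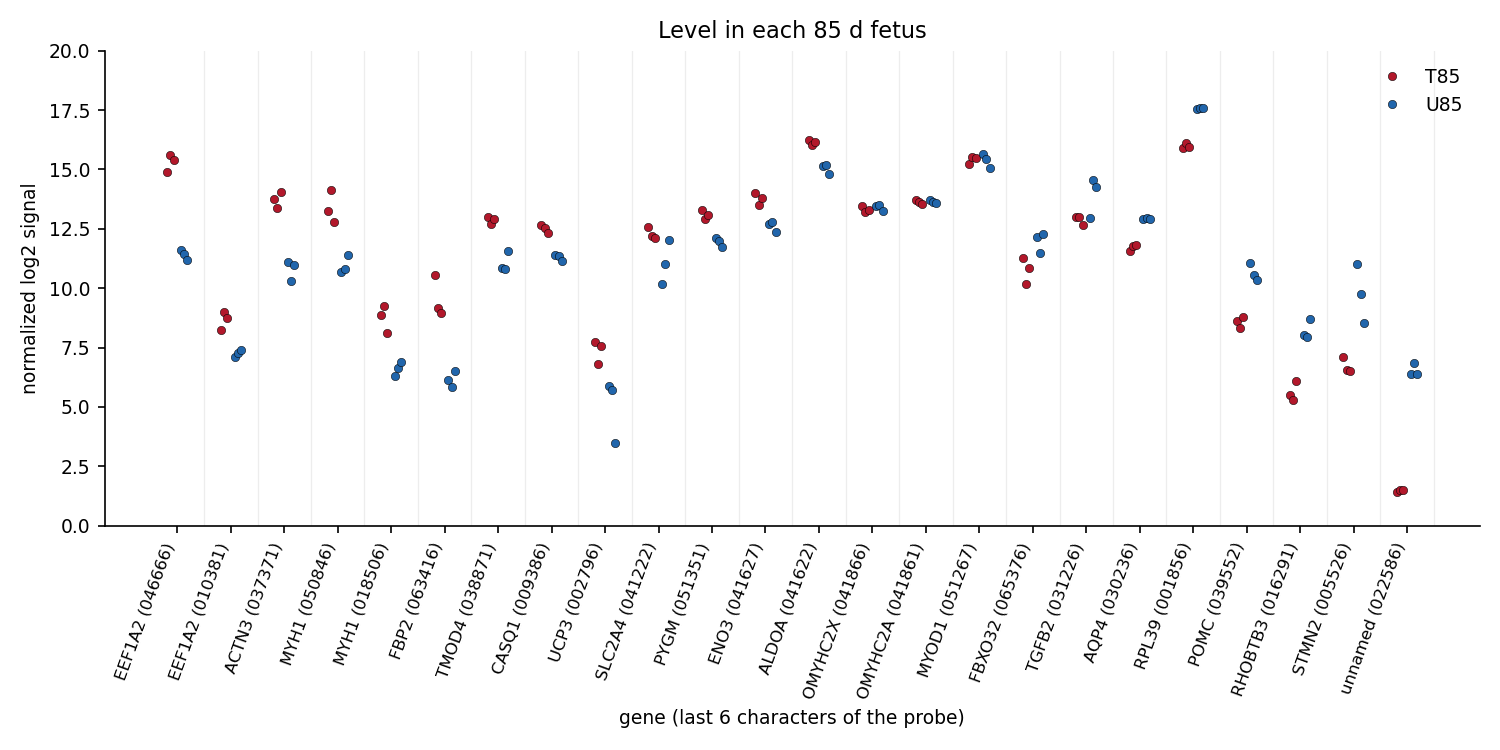
Normalized log2 signal of 24 probes in each fetus of 85 d, with 1 point per fetus, T85 in red and U85 in blue. The probes of EEF1A2, ACTN3, FBP2, TMOD4 and CASQ1 lie higher in all T85 fetuses, those of OMYHC2X, OMYHC2A and MYOD1 overlap, and the unnamed probe at the right lies near 1.5 in T85 and above 6 in U85. Points are to be compared within a probe only.

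The myosin heavy chain probes did not share 1 direction. The probes shown are the pair that the study's lists name MYH1, the fast IIx myosin, and the pair that the files name OMYHC2X and OMYHC2A, the ovine IIx and IIa chains. Capitals mark the run of 44 bases that the latter pair share.
MYH1, A_70_P050846: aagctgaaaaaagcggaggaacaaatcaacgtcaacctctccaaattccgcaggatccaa
MYH1, A_70_P018506: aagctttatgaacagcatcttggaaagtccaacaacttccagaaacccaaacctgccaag
OMYHC2X, A_70_P041866: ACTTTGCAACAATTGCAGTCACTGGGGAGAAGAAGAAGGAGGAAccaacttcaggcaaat
OMYHC2A, A_70_P041861: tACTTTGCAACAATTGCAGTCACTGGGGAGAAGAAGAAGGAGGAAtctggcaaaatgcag
The study-named MYH1 probes share at most 8 bases in a row with the OMYHC2X probe. On the former of them the level was 13.25, 14.13 and 12.79 in T85 and 10.67, 10.80 and 11.38 in U85, and the difference was 2.44 ± 0.37 (adjusted p = 0.139). The other gave 2.15 ± 0.32 (adjusted p = 0.131), again with no overlap, and 1.33 with normexp. OMYHC2X read 13.45, 13.21 and 13.31 in T85 and 13.48, 13.49 and 13.26 in U85, a difference of -0.09 ± 0.13 (adjusted p = 0.770), and OMYHC2A differed by -0.03 ± 0.10 (adjusted p = 0.918). With so long a shared run the OMYHC2X and OMYHC2A probes may each detect both transcripts, which was not tested. Slow myosin, on the brighter probe of OMYHCS, read 7.90, 7.31 and 7.83 in T85 and 7.93, 8.25 and 8.27 in U85, a difference of -0.47 ± 0.20 (adjusted p = 0.380) with no overlap. The MYH1 result thus rests on the study's naming of 2 probes, and the file-named probe of the same gene did not share it.

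Probes of other leading genes are given because, except for PYGM, their names come from the study and not from the files. For EEF1A2 the probe shown is the one with the smaller difference.
EEF1A2, A_70_P010381: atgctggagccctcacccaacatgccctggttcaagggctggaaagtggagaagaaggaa
ACTN3, A_70_P037371: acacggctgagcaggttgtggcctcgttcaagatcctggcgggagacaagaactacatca
FBP2, A_70_P063416: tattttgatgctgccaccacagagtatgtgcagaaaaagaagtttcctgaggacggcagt
PYGM, A_70_P051351: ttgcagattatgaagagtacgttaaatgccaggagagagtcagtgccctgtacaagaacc
PYGM, the last of them, is named by the files and belongs to the next group.

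The named genes of glycolysis and glycogen breakdown all had a higher mean in T85, most of them by little. Lists are counted here on the brightest probe of each gene. Of 39 genes of that list, 13 had a named probe, and all 13 were higher in T85, with a median difference of 0.43 against 0.04 over the 924 named genes. The unadjusted threshold was passed by 3 of the 13, against 28 of the 924 (3.03%), and 8 of the 13 had every T85 fetus above every U85 fetus, as had 114 of the 924 (12.3%). PYGM, the muscle glycogen phosphorylase, read 13.31, 12.93 and 13.08 in T85 and from 11.73 to 12.11 in U85, a difference of 1.16 ± 0.16 (2.24-fold, adjusted p = 0.112). ENO3, the muscle enolase, was higher by 1.15 ± 0.18 (adjusted p = 0.148) and ALDOA, the muscle aldolase, by 1.09 ± 0.14 (adjusted p = 0.108). In both, no U85 fetus reached the level of a T85 fetus. LDHA, which turns pyruvate into lactate, differed by 0.76 (adjusted p = 0.150), GAPDH by 0.44 (adjusted p = 0.346) and PFKM, the muscle phosphofructokinase, by 0.43 (adjusted p = 0.371). The other GAPDH probes differed by 0.39, 0.45, 0.03 and 0.04. Of the other members PFKL differed by 0.19, PYGL by 0.27 and HK1 by 0.05, and the muscle forms were not tested against the rest. The median of the list was 0.42 within slide 2, 0.42 under 75th percentile scaling and 0.31 with normexp, and PYGL turned to -0.04 within slide 2 and HK1 to -0.07 with normexp. None of the list passed adjustment at 85 d. Another ALDOA probe, A_70_P001706, which only the study's lists give that name, went the other way with -1.85 (adjusted p = 0.0646), so the probes that carry this name disagree.

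Fuel entry and mitochondria gave a smaller and less even set. SLC2A4, the insulin-responsive glucose transporter of muscle and fat, read 12.58, 12.20 and 12.11 in T85 and 10.17, 11.01 and 12.04 in U85 on the probe with the larger difference (1.23 ± 0.46, adjusted p = 0.351), and its other probe differed by 0.89 (adjusted p = 0.344). UCP3, an uncoupling protein of skeletal muscle mitochondria, read 7.73, 6.83 and 7.57 in T85 and 5.88, 5.70 and 3.48 in U85, where 2 of 3 arrays were well above background (2.36 ± 0.67, adjusted p = 0.290). The separation of SLC2A4 was narrow, since U85 replicate 3 lay just under the lowest T85 fetus, normexp background correction brought the UCP3 difference to 0.69, and the other UCP3 probe differed by 1.32 with overlap. Of the 40 genes of the mitochondrial list, 6 were named, 3 higher and 3 lower, with a median of 0.15. Among them CPT1B, which carries fatty acids into mitochondria, differed by 0.43 and COX5A by -0.49, neither past the threshold. The study-named COX7A1, a muscle subunit of cytochrome oxidase, differed by 1.28 (adjusted p = 0.215) with no overlap. The other study-named members of this list were ADSSL1, at 1.05 (0.63 with normexp), and ACADM, at -0.41 with overlap. In the glycolysis list the study alone names FBP2, TPI1 (1.00), ALDOC (0.89) and PDK4, which brakes glucose oxidation (-0.14, with overlap). These were looked up after the values were seen.

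Set against the Ujumqin stages, the T85 levels of EEF1A2, ACTN3 and TMOD4 lay nearer to U100 than to U85. This was read from a limma model of all 31 fetal arrays in 10 groups, in which 27 probes (0.188%) passed adjustment between T85 and U85. Mean EEF1A2 was 11.43 in U70, 11.42 in U85, 15.45 in U100 and 15.31 in T85. T85 exceeded U70 by 3.88 (adjusted p = 9.98e-08) and differed from U100 by -0.14 (adjusted p = 0.861), while U100 exceeded U85 by 4.03 (adjusted p = 1.86e-07). ACTN3 stood at 9.50 in U70, 10.80 in U85, 14.21 in U100 and 13.72 in T85, and T85 differed from U100 by -0.49 (adjusted p = 0.366). For FBP2 the difference of T85 from U100 was -0.96 (adjusted p = 0.190) and for TMOD4 -0.15 (adjusted p = 0.765), whereas T85 exceeded U70 by 5.85 and 3.30 (adjusted p = 2.92e-09 in both). The study-named MYH1 probes differed from U100 by -1.12 and -1.29 (adjusted p = 0.133 and 0.118), and the SLC2A4 probe with the larger breed difference by -0.80 (adjusted p = 0.215). PYGM, ENO3 and ALDOA in T85 were 0.60, 0.32 and 0.39 above U100 (adjusted p = 0.152, 0.485 and 0.332). U100 and U85 differed by 0.56, 0.83 and 0.70 in these 3 genes (adjusted p = 0.272, 0.0849 and 0.124), so a change between these Ujumqin stages was not shown for them. A p above the threshold does not show that T85 and U100 were at the same level. In this fit EEF1A2, ACTN3, FBP2, TMOD4, CASQ1 and the brighter MYH1 probe passed adjustment between T85 and U85, with p from 3.84e-07 to 0.0140, as did PYGM, ENO3 and ALDOA with p from 0.0393 to 0.0410. Slide as a further term was a setting chosen after seeing the data. On slide 1 the only other fetal arrays are those of T70, so T85 replicates 1 and 2 set the term of that slide. The difference in this setting is therefore that of T85 replicate 3 alone from the U85 fetuses, and no call is read from it. It was 3.99 for EEF1A2 A_70_P046666, 3.25 for ACTN3, 2.80 for FBP2, 1.85 for TMOD4 and 1.03 for CASQ1. For the brighter MYH1 probe it was 1.84, and for PYGM, ENO3 and ALDOA 1.14, 1.19 and 1.09. Across all probes T85 differed from U70 at 261 (1.82%) and from U100 at 226 (1.57%), and U100 from U85 at 101 (0.702%). U100 lay on slides 3 and 4 and shared no slide with T85 or U85. Its differences from them, here and in the genes above, therefore hold slide as well as stage, and from T85 also breed. These parts were not tested.

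The breed difference in some of these genes was also found at 70 d, where 42 probes (0.292%) passed adjustment between T70 and U70. EEF1A2 was already 14.50 in T70 against 11.43 in U70, a difference of 3.07 (adjusted p = 3.77e-05), and it was 16.24 in T100 against 15.45 in U100, a difference of 0.79 (adjusted p = 0.463). At 70 d TMOD4, FBP2 and CASQ1 were higher in Texel by 1.49, 1.87 and 1.12 (adjusted p = 0.00353, 0.0421 and 0.0207), ENO3 passed as well (adjusted p = 0.0421), and ACTN3 and PYGM differed by 1.18 and 0.81 (adjusted p = 0.0764 and 0.125). T70 and U70 lay on different slides, and at that stage slide cannot be told apart from breed. At 100 d 15 probes (0.104%) passed, and none of these genes was among them. The breed difference of EEF1A2 at 85 d exceeded that at 100 d by 3.10 (adjusted p = 0.00789), and this was the 1 probe of 14379 (0.00695%) at which the difference between the stages passed adjustment, with 318 at the unadjusted threshold. Between 85 and 70 d it was 0 of 14379 (0%) by limma after adjustment and 142 at the unadjusted threshold. For ACTN3, FBP2, TMOD4 and the glycolytic enzymes, a change of the breed difference between stages was therefore not shown (adjusted p of 0.447, 0.696 and 0.696 against 100 d for the first 3). The study's own qPCR gave EEF1A2 lower in Texel at 70 d and only a little higher at 85 d. By that qPCR CASQ1 was lower in Texel at both stages, and TMOD4 was higher at both.

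**Figure D2:**
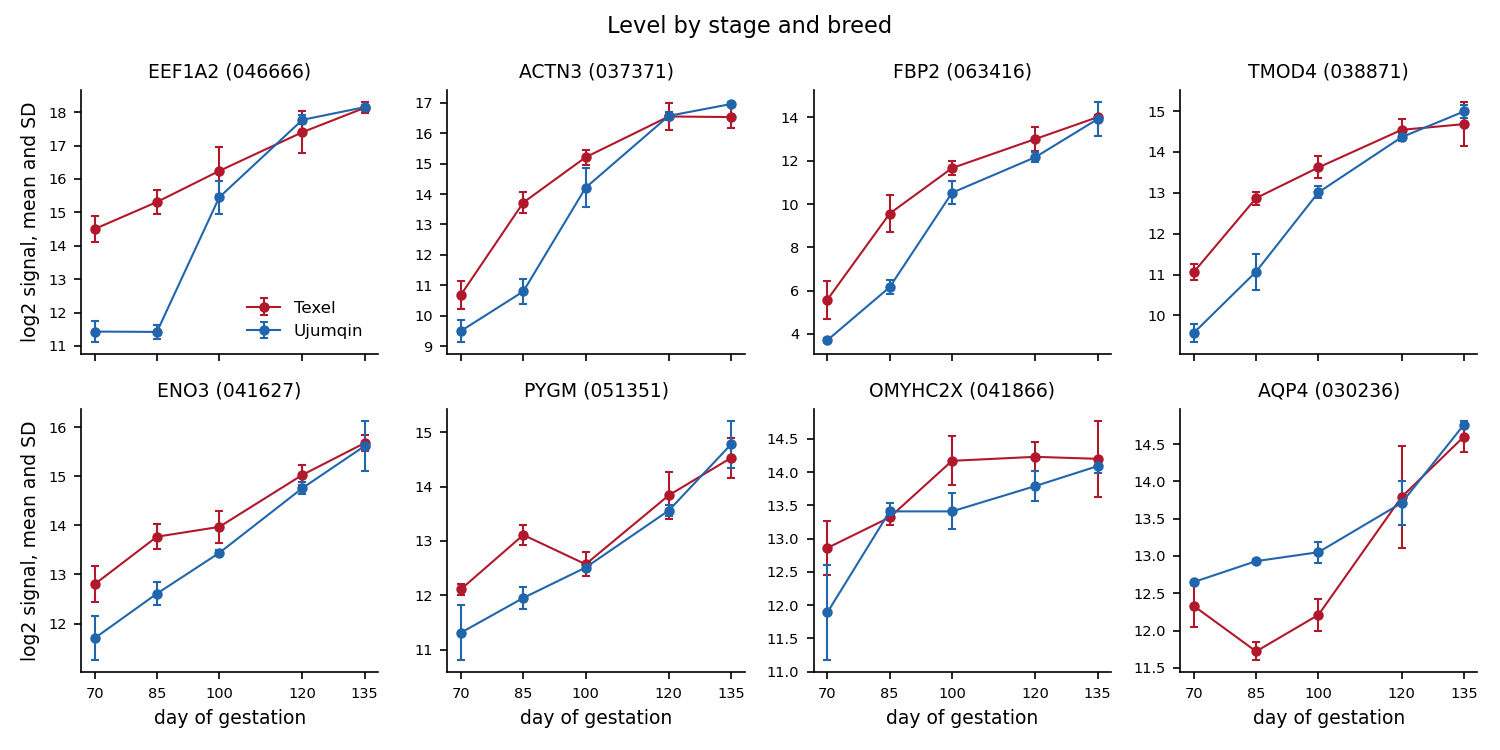
Mean and SD of the normalized log2 signal of 8 probes by day of gestation, Texel in red and Ujumqin in blue, with 3 fetuses per point and 4 at T100. In the panels of EEF1A2, ACTN3, FBP2 and TMOD4 the Texel line lies above the Ujumqin line at 85 d and they lie within 1 log2 unit at 120 d, OMYHC2X coincides at 85 d, and AQP4 is lower in Texel at 85 d (11.72 against 12.93).

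Over all probes, however, the fetuses of the breeds were not separated on the developmental course. Each fetus was placed by projection on the axis from the 70 d mean (0) to the 100 d mean (1), over 13709 probes with values on all arrays, and the axis was made from 13 arrays of 70 and 100 d without those of 85 d. The 70 d arrays lay on slides 1 and 2. The 100 d arrays lay on slides 3 and 4, but for T100 replicate 1 on slide 2. Slide is thus nearly joined with stage on this axis, and its part was not tested. The positions were 0.43, 0.38 and 0.51 in T85 and 0.33, 0.31 and 0.50 in U85. T85 averaged 0.44 ± 0.07 (SD, n = 3) and U85 0.38 ± 0.10 (SD, n = 3), a difference of 0.06 (exact two-sided permutation p = 0.40, where the smallest that 3 against 3 allows is 0.1). The breeds overlapped, because U85 replicate 3 lay beside the furthest T85 fetus. T85 replicate 3 exceeded the U85 mean by 0.13 on the slide they share, and the pair of T85 fetuses on slide 1 exceeded it by 0.03. The groups that set the axis lay near 0 and 1 by construction, at -0.03 in T70, 0.03 in U70, 1.05 in T100 and 0.95 in U100. The later groups lay beyond them, at 1.46 in T120, 1.22 in U120, 1.42 in T135 and 1.33 in U135.

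The answer depended on which breed set the axis. With U70 and U100 alone, T85 lay at 0.58, 0.54 and 0.55 and U85 at 0.38, 0.34 and 0.45, so every T85 fetus was further along (difference 0.17, exact two-sided permutation p = 0.1, the smallest possible). With T70 and T100 alone, T85 lay at 0.38, 0.34 and 0.52 and U85 at 0.40, 0.40 and 0.58, and the difference turned to -0.04 (exact two-sided permutation p = 0.50). U70 shares slide 2 with all U85 fetuses and T70 shares slide 1 with 2 of the T85 fetuses, and the part of the slide in this was not tested. Restricted to the probes that changed between 70 and 100 d, T85 lay at 0.56, 0.51 and 0.60 and U85 at 0.36, 0.34 and 0.48, with a difference of 0.16 (exact two-sided permutation p = 0.1) and no overlap. With the probes named in the files or the reference only, T85 lay at 0.60, 0.51 and 0.59 and U85 at 0.37, 0.34 and 0.53, a difference of 0.15 with overlap (exact two-sided permutation p = 0.20), and with normexp the difference over all probes was 0.10 (exact two-sided permutation p = 0.40). On an axis from U85 to U100, with each U85 fetus left out of its own axis, T85 averaged 0.37 and U85 0.27, and they overlapped (exact two-sided permutation p = 0.30). The U85 fetuses that set the start of this axis enter both the axis and the score, which raises the score of every fetus. The 0.37 is therefore not the share of the way from U85 to U100, and T85 is read against U85 only.

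**Figure D3:**
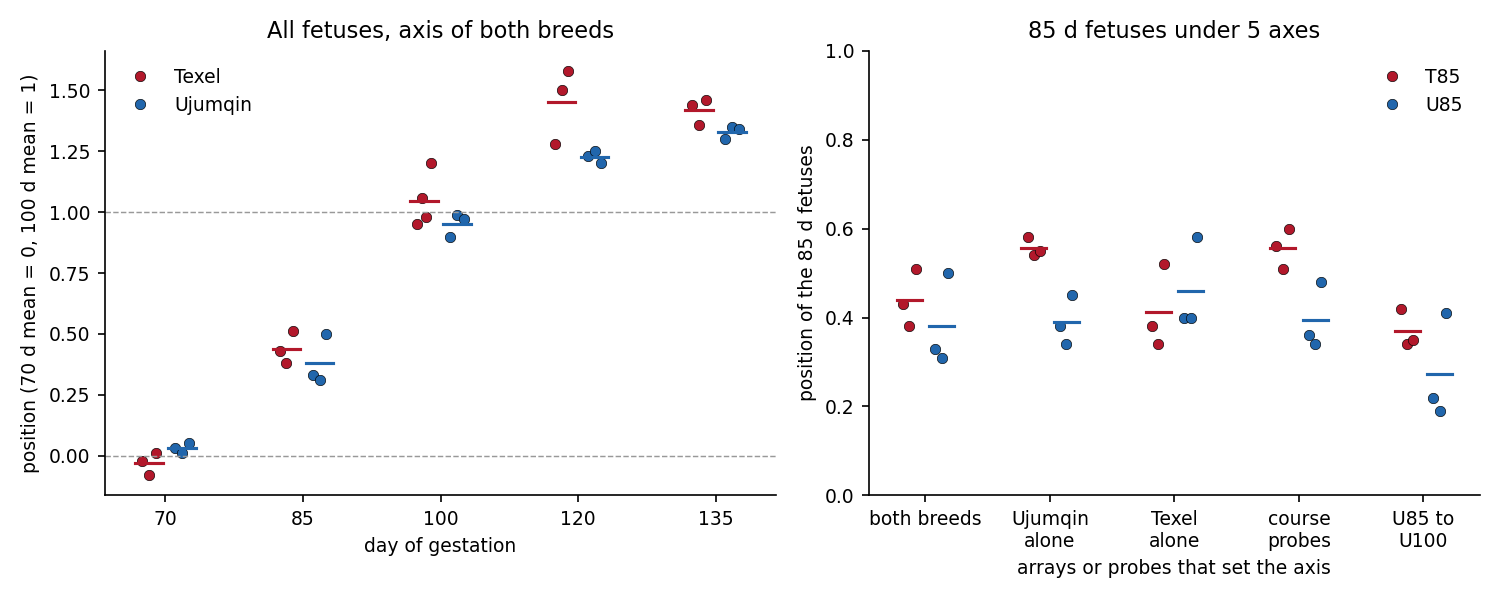
Left, position of each of the 31 fetuses on the axis from the 70 d mean (0) to the 100 d mean (1), by day of gestation, Texel in red and Ujumqin in blue, with bars at group means. Right, positions of the 85 d fetuses under 5 ways to set the axis, in which T85 lies clear of U85 with Ujumqin alone and with the course probes, and overlaps it otherwise.

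Among the probes that moved with stage, those that rose leaned towards T85. Between 70 and 100 d, over both breeds, 731 of 14379 probes (5.08%) changed by 2-fold or more at an adjusted p under 0.05, of which 417 rose and 314 fell. Stage and slide are nearly joined in these arrays, as on the axis, and the part of the slide in these changes was not tested. Of the risers 259 were higher in T85 and 158 lower (62.1% higher, median 0.18), against 49.7% and a median of 0.00 over all tested probes. Every T85 fetus was above every U85 fetus at 92 risers (22.1%) and below at 32 (7.67%). Of the fallers 140 were higher in T85 and 174 lower (median -0.05), and all T85 fetuses were below U85 at 44 of the 314 and above at 15 (4.78%). Both leans run towards the 100 d state, by little, and the faller median turned to 0.01 under 75th percentile scaling. Without each fetus in turn the riser median was 0.10 to 0.22 and the faller median -0.15 to 0.00, so the lean of the fallers was not steady. Within slide 2 the risers had a median of 0.31 and the fallers of -0.07. With the course defined by Texel fetuses alone the medians turned to -0.13 for risers and 0.08 for fallers, and with Ujumqin fetuses alone they were 0.26 and -0.24. Steeper probes, of 4-fold or more, showed the lean more strongly, with a median of 0.48 over 87 risers and -0.55 over 37 fallers.

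The breed difference and the course overlapped in part. Of the 292 probes past the unadjusted threshold at 85 d, 70 were course probes, which is 24.0% of the 292 and 9.58% of the course probes, where 5.08% of all tested probes were course probes and 2.03% passed the threshold. Of the 70, 50 differed towards the 100 d state in T85 and 20 towards the 70 d state, and the other 222 were not course probes. The steepest risers with file or reference names gave a mixed picture. CATHL1B, a cathelicidin of neutrophil granules, read 13.62, 11.42 and 9.44 in T85 and 7.64, 8.49 and 11.49 in U85, and MMP1, a collagenase, differed by 0.94 (adjusted p = 0.387). HSD11B1, which regenerates active glucocorticoid and rose by 4.43 from 70 to 100 d, differed by -0.22 between T85 and U85, with overlap. BAC5 and LTF, also products of neutrophil granules, differed by 2.09 and 1.67 and overlapped as well. Within slide 2 the difference was 0.23 for CATHL1B and 0.82 for BAC5. AHSG, the fetal plasma protein fetuin, was a steep faller on 1 of 2 probes, and neither was well above background on any T85 array. On the faller probe, A_70_P039676, U85 was at least 1.55-fold higher, with overlap. On AHSG probe A_70_P039677, which was not a course probe, U85 read 4.63, 4.83 and 6.04 and was at least 2.39-fold higher, without overlap and past the unadjusted threshold (adjusted p = 0.250). Of the other steep fallers SERPINA1 differed by -0.47 (-0.02 within slide 2), MGLUR7 was well above background on no T85 array, and TNMD, a tendon protein, differed by 1.75. OSTN, a muscle-secreted peptide, read 8.06, 6.73 and 7.23 in T85 and 8.23, 9.22 and 7.57 in U85. SERPINA1, MGLUR7, TNMD and OSTN did not pass the unadjusted threshold and overlapped. Some probes that the study's lists name moved as steeply and are described after their values were seen. FBP2, ACTN3 and MYH1, which rose by 6.45, 4.61 and 4.40 from 70 to 100 d, were higher in T85, as given above. Of the fallers MYO5B and VSNL1 differed by -1.44 and -1.27 past the unadjusted threshold (-0.70 for VSNL1 with normexp), and PDZK1, the steepest, by -0.95, not past it (-0.10 with normexp).

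**Figure D4:**
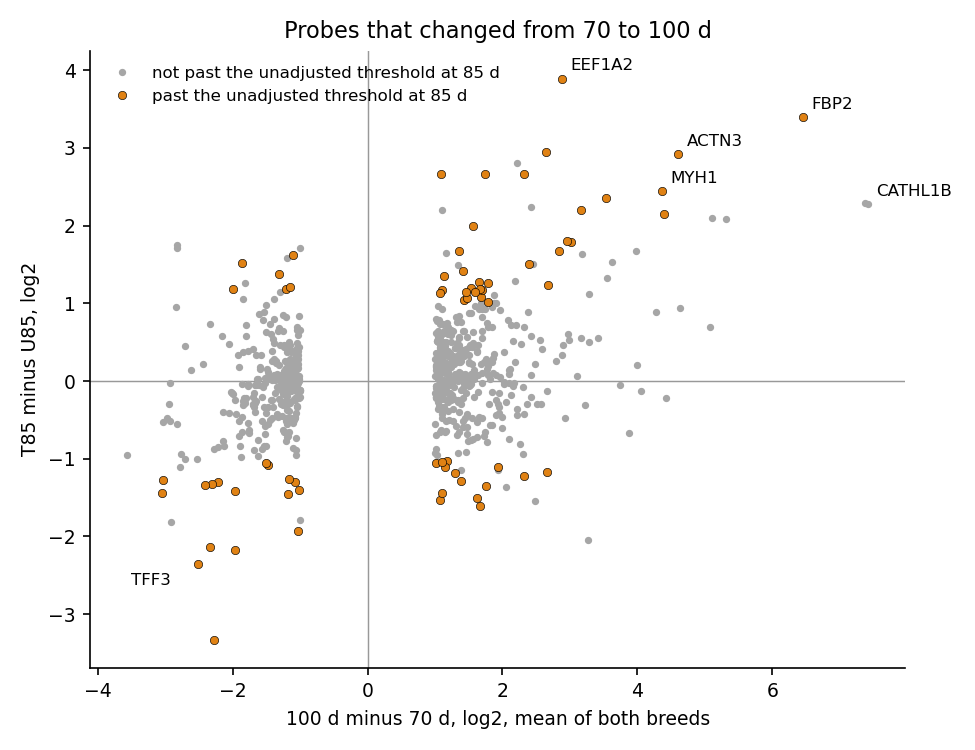
Each of the 731 course probes by its change from 70 to 100 d over both breeds (horizontal axis, log2) and by T85 minus U85 (vertical axis, log2). Orange points passed the unadjusted threshold at 85 d, and 33 of them lie at the upper right, 17 at the lower left, 14 at the lower right and 6 at the upper left.

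The fast fibre and sarcomere list, counted by file and reference names only, did not share the lean of the study-named genes. Of its 61 genes 9 were named, 2 were higher in T85 and 7 lower, with a median of -0.06, and 0 passed the unadjusted threshold by limma. CRYAB, a small heat shock protein of muscle, differed by 0.40 and TPM1 by 0.17, while MB, myoglobin, differed by -0.26. A further 6 members are named by the study only, and they did not share 1 direction either. ACTN3, CASQ1 and TMOD4 were higher in T85, as given above, and CMYA5, a costamere protein, by 1.20 (adjusted p = 0.317), which was 0.34 within slide 2 and 0.29 with normexp. MYL6B differed by 0.18 and TPM2 by -0.74.

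Most regulators of myogenesis with file or reference names differed little. Of 49 genes 23 were named, 8 higher in T85 and 15 lower, with a median of -0.10. MYF5 and MYOG, factors of muscle determination and differentiation, differed by -0.20 (adjusted p = 0.779) and -0.10 (adjusted p = 0.876), and the insulin-like growth factors IGF1 and IGF2 by 0.03 and -0.22. The 1 member past the unadjusted threshold on its brightest probe was FBXO32, the ubiquitin ligase atrogin-1 of muscle protein breakdown. It read 11.28, 10.18 and 10.84 in T85 and 12.16, 11.47 and 12.28 in U85, a difference of -1.20 ± 0.34 (adjusted p = 0.290) without overlap, and -1.13 within slide 2. IGFBP2, which falls from 70 to 100 d, differed by -0.26 and IGFBP3 by 0.36, both without overlap. LEF1, a transcription factor of Wnt signalling, passed on its dimmer probe (-1.04, adjusted p = 0.323) and overlapped on the brighter one (-0.74). A further 3 members are named by the study only. INHBB, an activin subunit, and TEAD1, a transcription factor of the Hippo pathway, differed by -1.22 and -1.13 past the unadjusted threshold without overlap (adjusted p = 0.174 and 0.148), with TEAD1 at -0.35 after normexp correction, and STAT3 differed by 0.56 with overlap.

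Of the 3 probes past adjustment, 2 were higher in U85. Probe A_70_P022586, which has no name here, read 1.43, 1.51 and 1.49 in T85, where no array was well above background, and 6.37, 6.86 and 6.41 in U85. U85 exceeded T85 at least 6.54-fold (adjusted p = 0.000559), with the dim group set to the lowest signal well above background on each array. A_70_P022586 was no longer past adjustment with 75th percentile scaling (adjusted p = 0.0510) or within slide 2 (adjusted p = 0.107), and its fitted difference was under 2-fold with normexp. The probe that the study's lists name RPL39, a ribosomal protein, read 15.91, 16.12 and 15.93 in T85 and 17.55, 17.59 and 17.57 in U85, a difference of -1.58 ± 0.11 (adjusted p = 0.0234), and RPL39 A_70_P001856 was no longer past adjustment when any 1 fetus was left out (adjusted p from 0.0614 to 0.138) or in the 10-group fit (adjusted p = 0.329). The ribosomal and translation list, by file and reference names, had 21 of 93 genes, of which 9 were higher and 12 lower with a median of -0.01 (0.02 within slide 2), and none passed the unadjusted threshold. Under 75th percentile scaling 4 were higher and the median was -0.11, and within slide 2 12 were higher. Over the 292 probes, 12 were well above background on all U85 arrays and no T85 array, and 0 the other way. The share of all spots well above background was 83.8% to 89.2% in T85 and 88.7% to 90.9% in U85. The same count over all tested probes is not given here, so no lean is read from it.

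AQP4, the water channel of fast muscle membranes and of astrocytes, was lower in T85. It read 11.58, 11.78 and 11.80 in T85 and 12.91, 12.96 and 12.92 in U85, a difference of -1.21 ± 0.11 (adjusted p = 0.0534), and -1.13 within slide 2. In the 10-group fit it passed adjustment (adjusted p = 0.0233), and T85 lay below U70 by -0.93 and below U100 by -1.34 (adjusted p = 0.0181 and 0.00340). The T85 level of AQP4 thus lay below those of U70, U85 and U100. With slide as a further term the AQP4 difference is that within slide 2, which rests on T85 replicate 3 alone, and no call is read from it. RHOBTB3, a Golgi and endosome protein named by the study, read 5.52, 5.31 and 6.11 in T85 and 8.05, 7.94 and 8.69 in U85 (-2.58 ± 0.28, adjusted p = 0.0749) and also lay below U70 by -2.12 (adjusted p = 0.0167), but its difference from U85 was -1.23 with normexp. PIK3R1, a regulatory subunit of phosphoinositide 3-kinase and also named by the study, differed by -1.47 ± 0.33 (adjusted p = 0.235), which was -0.86 with normexp and -0.92 within slide 2.

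Some marker genes of nerve, pituitary and epithelium were higher in U85. Others were not, since 4 of the 8 named genes of the epithelial and hormone list were higher in T85, among them LHB, CLDN4 and GCG by 0.04, 0.18 and 0.47 with overlap. STMN2, a neuronal growth cone protein and the only nerve marker of 5 with a name, read 7.10, 6.55 and 6.52 in T85 and 9.76 and 8.53 in U85 replicates 2 and 3, with replicate 1 higher still, a difference of -3.04 ± 0.60 (adjusted p = 0.202). Its probe, too, is named by the study's lists only. POMC, the precursor of pituitary hormones, read 8.64, 8.31 and 8.81 in T85 and 11.08, 10.56 and 10.34 in U85 on its brighter probe (-2.08 ± 0.23, adjusted p = 0.0749). Its other probe differed by -2.31 (adjusted p = 0.108), and the groups did not overlap on either. Of the pituitary markers 3 of 4 were named, with a summed level of 9.57, 9.03 and 9.71 in T85 and 11.96, 11.44 and 11.24 in U85, POMC being the brightest, while CGA was not well above background on any of the 6 arrays. Of the epithelial markers 2 of 5 were named, TFF3 and, by the study only, EPCAM, with sums of 4.56, 5.60 and 5.45 in T85 and 6.90, 7.04 and 6.82 in U85. TFF3, a mucosal peptide that falls from 70 to 100 d, differed by -2.36 ± 0.40 (adjusted p = 0.158) on 1 probe, well above background on 1 of 3 T85 arrays, and by -1.34 with overlap on the other. Normexp correction brought these to -0.31 and -0.20, and EPCAM from -1.93 to -0.29. These signals are from whole muscle, where fewer cells of a type and less RNA per cell cannot be told apart, and their part in the other differences was not tested.

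Further named genes that were higher in U85 belong to no single group. Among them were the glutamate receptor GRIA1 (-1.93), STAR, which brings cholesterol into mitochondria for steroid synthesis (-1.83), the drug exporter ABCB1 (-1.72), CYP3A24 (-1.66) and TFAP2A (-1.23). Each value is of the probe with the largest difference, which was without overlap, with adjusted p from 0.212 to 0.339. On these probes GRIA1, STAR and TFAP2A were well above background on 1 of 3 T85 arrays and ABCB1 on 2 of 3, and normexp correction brought the differences to -0.22 for GRIA1, -0.17 for STAR, -0.42 for ABCB1, -0.90 for CYP3A24 and -0.15 for TFAP2A. Within slide 2 GRIA1 differed by -1.01 and TFAP2A by -0.57. TBX21, a T cell transcription factor, cleared background in every U85 fetus and no T85 fetus on 1 probe, without overlap but too dim for a bound, and overlapped on the other (-0.73). The probes of EGR1, an immediate early transcription factor, disagreed in size. The dimmest was at least 2.33-fold higher in U85, with no T85 array well above background, no overlap and a fitted difference under 2-fold with normexp. The other 3, well above background on all 6 arrays, differed by -0.26, -0.98 and -0.92, and the breeds overlapped on each. The stress and hormone response list, to which EGR1, ABCB1 and CYP3A24 belong, had 20 of 43 genes named, 11 higher and 9 lower, with a median of 0.06 that turned to -0.01 with normexp. Its member ESR1, an oestrogen receptor, was higher in T85, at 10.73, 10.51 and 10.62 against 9.01, 9.12 and 9.93 (1.26 ± 0.26, adjusted p = 0.212). FOS, another immediate early gene, differed by -1.93 (adjusted p = 0.377) with overlap.

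Genes of antigen presentation and of the interferon response leaned to the T85 side, some of them by little. The 4 named genes of the major histocompatibility complex list (of 40) were higher, with a median of 0.75, as were the 7 of 30 interferon-stimulated genes, with a median of 0.24, against 0.04 over all named genes. Members named by the study only are not in these counts. Of them HLA-DQB1 and the brighter probe of GBP2 were higher by 1.21 and 1.80 without overlap and OVAR-DQB1 by 3.84 with overlap, all past the unadjusted threshold, OAS1 differed by 0.85 (2.07 within slide 2, 0.17 with normexp), and GBP4 cleared background on 2 U85 arrays and no T85 array. RTP4, CXCL10 and PSMB8 differed by 0.01, 0.05 and 0.08 with overlap, and CXCL10 turned to -0.03 with normexp. MHCII-DRB1, which presents peptides to helper T cells, read 10.83, 9.71 and 10.41 in T85 and 9.11, 9.53 and 8.74 in U85 (1.19 ± 0.33, adjusted p = 0.288). ISG15, a ubiquitin-like protein induced by interferon, read 8.55, 9.29 and 10.13 in T85 and 8.26, 8.19 and 8.02 in U85 (1.17 ± 0.38, adjusted p = 0.332), and the difference was 1.97 within slide 2. OVAR, a class I chain, and B2M, the light chain of class I, differed by 1.00 and 0.51, also with no overlap. Each list had 1 member past the unadjusted threshold. PSMB8 is in both lists. Alleles of major histocompatibility genes differ between breeds and may bind a probe unequally, which was not tested.

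**Figure D5:**
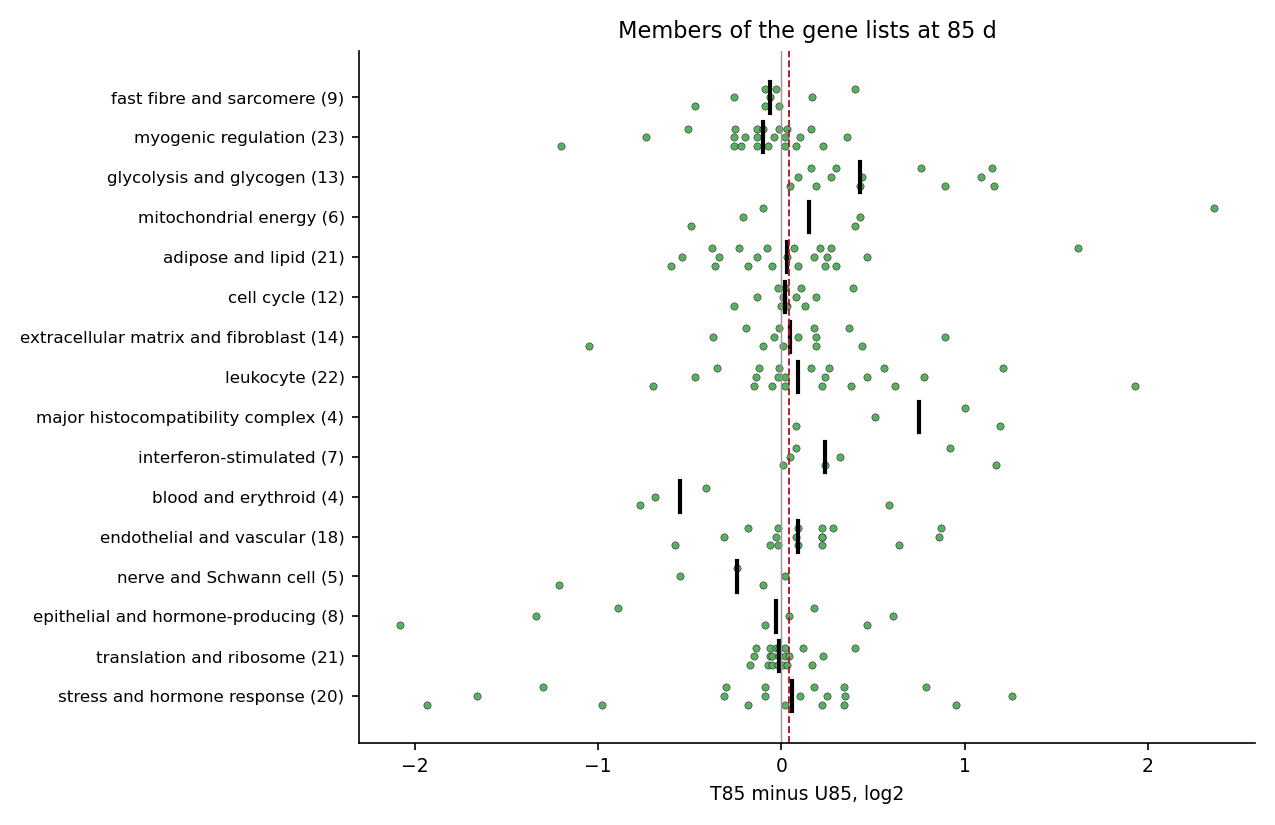
T85 minus U85 (log2) of each named gene of 16 lists, 1 point per gene and the number of genes in brackets, with black bars at list medians and a dashed red line at the median of all 924 named genes (0.04). The glycolysis and glycogen list lies wholly right of 0 (PYGL turned to -0.04 within slide 2 and HK1 to -0.07 with normexp), as do the 4 genes of the major histocompatibility complex and the 7 interferon-stimulated genes, some of them close to 0 (CXCL10 turned to -0.03 with normexp).

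Leukocyte markers moved in part with these. Their summed level was 11.14, 10.86 and 10.94 in T85 and 10.40, 10.43 and 10.71 in U85, without overlap, over 6 of 7 markers, with S100A9 the brightest. S100A9, a neutrophil and monocyte protein named by the study, differed by 1.51 ± 0.37 (adjusted p = 0.250) and ITGAM, an integrin of myeloid cells, by 1.21 ± 0.22 (adjusted p = 0.178) on its brighter probe, while the other was well above background on 1 of 6 arrays. With normexp the ITGAM difference was 0.18. CD3E, a T cell receptor subunit, went the other way with -0.70 ± 0.17 (adjusted p = 0.250), and -0.37 within slide 2. CD4 was well above background only in T85 replicate 2 (7.67, against 1.52 and 1.47 in the other T85 fetuses). Over the leukocyte list, 22 of 53 genes were named, 13 higher and 9 lower, with a median of 0.09. The part of leukocytes in the higher antigen presentation genes was not tested.

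Lipid, matrix and proliferation genes showed no common direction. The adipose and lipid list had 21 of 41 genes named, 11 higher and 10 lower (median 0.03), and PPARG, the master regulator of fat cells, read 11.05, 11.51 and 11.39 in T85 and 11.22, 10.77 and 11.32 in U85. ACACA, the enzyme that commits carbon to fatty acid synthesis, was the 1 member past the unadjusted threshold (1.62 ± 0.39, adjusted p = 0.250). Its difference was 0.80 within slide 2 and 0.44 after normexp correction. The cell cycle list had 12 of 38, 8 higher and 4 lower (median 0.02, none past the threshold), with CCND2 at 0.39 and CDKN1B at -0.26. Of the matrix list 14 of 45 were named, 8 higher and 6 lower (median 0.05). TGFB2, a growth factor that holds back muscle differentiation, read 12.98, 12.99 and 12.65 in T85 and 12.97, 14.55 and 14.25 in U85 (-1.05 ± 0.41, adjusted p = 0.361), and the overlap came from U85 replicate 1. LUM, a matrix proteoglycan named by the study, was higher by 1.19 ± 0.29 (adjusted p = 0.250) without overlap, while the collagens COL1A1, COL1A2 and COL3A1 differed by 0.19, 0.09 and -0.10 and overlapped. The study-named SFRP2 and SERPINE2 passed the unadjusted threshold in opposite directions without overlap, at 1.52 and -1.35 (-0.27 with normexp for SERPINE2). ELN, also named by the study, differed by 0.37 with overlap. LUM is also 1 of the 5 fibroblast markers, all of them named, whose summed level was 18.43, 18.40 and 18.22 in T85 and 18.06, 17.99 and 18.14 in U85, with DCN the brightest. Every T85 fetus was thus above every U85 fetus in this sum, and its part in the matrix genes was not tested. The sums of the adipocyte (3 of 4 named), endothelial (1 of 4) and blood markers (1 of 4) overlapped between the breeds.

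The remaining lists were short or flat. The endothelial list (18 of 38 named, 11 higher, 7 lower, median 0.09, but -0.05 within slide 2) had none past the threshold on the brightest probe of each gene. Its SELP and ACE differed by 0.87 and 0.86 with overlap (0.18 and 0.11 with normexp), and a dimmer ACE probe differed by 1.35 without overlap and past the unadjusted threshold (adjusted p = 0.323), but by 0.09 with normexp. The blood list (4 of 27, 1 higher, 3 lower, median -0.55) turned to a median of 0.21 within slide 2. HBB, the beta globin, read 16.03, 15.50 and 15.81 in T85 and 15.88, 17.34 and 16.43 in U85, so the higher mean of U85 came mostly from its replicate 2. The nerve list (5 of 42, 1 higher, 4 lower, median -0.24) had AQP4 as its 1 member past the threshold, and the epithelial and hormone list (8 of 30, 4 higher, 4 lower, median -0.03, but 0.08 within slide 2) had POMC and TFF3, and PRL on its dimmer probe (-1.22, well above background on 1 of 3 T85 arrays, -0.16 with normexp). No gene of the sex-linked list was named in the files or the reference, and sex as a covariate left 295 probes past the unadjusted threshold.

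Further genes were included by rule because the study's own account names them. MYL6B, a myosin light chain, differed by 0.18 ± 0.18 (adjusted p = 0.662), and T85 lay under both U70 (-0.72, adjusted p = 0.0164) and U100 (-0.67, adjusted p = 0.0300). TPM2 differed by -0.74 ± 0.38 (adjusted p = 0.433), which was 0.07 within slide 2. TXNRD1 and INSIG1 differed by 0.19 and 0.17 with overlap (1.11 and -0.07 within slide 2), and TSHR was not well above background on any of the 6 arrays. APOC2, an apolipoprotein that activates lipoprotein lipase, was higher by 2.66 ± 0.57 (adjusted p = 0.223), PRG3 by 2.58 ± 0.42 (adjusted p = 0.148) and the C4BPA probes by 1.99 and 1.64, all without overlap. With normexp the difference of PRG3 was 0.66 and that of the former C4BPA probe 0.65 (1.31 within slide 2). TRRAP (-1.53), PON1 (-1.05), LEF1 (-1.04 and -0.74), ACTB (-0.84), MYO9A (-0.70) and TNC (-0.54) were lower, and of these PON1, the probe of LEF1 with the larger difference, ACTB and MYO9A did not overlap. The ACTB probe was well above background on 1 of 3 T85 arrays and that of MYO9A on 2 of 3. Normexp correction brought TRRAP to -0.81, PON1 to -0.25, LEF1 to -0.30 and -0.32, ACTB to -0.11, MYO9A to -0.18 and TNC to -0.34, and PON1 was at -1.74 within slide 2.

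Among probes with file names that passed the unadjusted threshold without overlap, the largest differences towards T85, beside UCP3, SLC2A4, ESR1, ACACA and ITGAM, were in dim or unsteady genes. Some differences as large did not pass, among them those of CATHL1B, BAC5, LTF and TNMD above. KRT27, a keratin of the hair follicle, read 10.95, 10.35 and 9.94 in T85 and 9.08, 4.79 and 8.53 in U85 (2.95 ± 1.11, adjusted p = 0.353), where U85 replicate 2 stood apart. PTGER4, a prostaglandin receptor, differed by 1.51 (adjusted p = 0.343), which was 0.29 within slide 2 and 0.56 with normexp, and CD1B, which presents lipids to T cells, by 1.22 (adjusted p = 0.250), which was 0.60 within slide 2 and 0.12 with normexp. LOC100191064 and LOC100037688, which the files give only by locus, differed by 2.38 and 1.68, the former largely through T85 replicate 2 (8.12, against 5.04 and 4.62). With normexp they differed by 0.55 and 0.18, and within slide 2 by 1.07 and 0.78. On the probes given, CD1B and LOC100191064 were well above background on 2 of 3 U85 arrays and LOC100037688 on 1 of 3. Other probes differed less, the brighter of CD1B by 0.78 with overlap and the 3 of LOC100037688 that were well above background on all U85 arrays by 0.39, 0.46 and 0.89, the last without overlap.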

How the data were processed

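Longissimus dorsi RNA was measured on 1-colour Agilent sheep arrays, 1 per animal. Per the file headers the authors obtained the spot intensity with Agilent Feature Extraction 10.5, which subtracted background without scaling between arrays. The deposited table holds quantile-normalized log2 values made by the authors and was used as an alternative.

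Control and outlier spots were left out and repeat spots averaged per probe. Quantile normalization over the 31 fetal arrays, a floor of 1 and log2 followed. A total of 14379 of 15008 probes, well above background on at least 1 fetal array, were tested. No spot was saturated. Names were held by 1605 probes in the files, 1320 of them updated through the reference, and by 302 in the study's lists only. Lists were counted with 1 probe per gene, the brightest over the 6 arrays, under file and reference names.

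The breeds were compared with limma 3.58.1 in R 4.3.3 on the 6 arrays, and p-values and SE come from this fit, with Benjamini-Hochberg adjustment over every tested probe, unless another is named. Course probes came from a limma fit on the 13 arrays of 70 and 100 d, and stage contrasts from a fit over 10 groups. The exact permutation tests of position and the figures were made in Python 3.11.15 with scipy 1.17.1, numpy 2.4.6, matplotlib 3.10.9 and pandas 2.3.3. An "at least" fold sets the dim group to the higher, per array, of its own signal and the lowest signal that any probe well above background had there. The steps were tested on simulated data.

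The genes named are those past adjustment, those the study's text names at 85 d or measured by qPCR, the 10 largest named differences per direction without overlap, up to 4 members per direction and list past the unadjusted threshold (else the 2 largest), and the 5 steepest named course genes per direction. Other genes were chosen after their values were seen. The members and the 17 lists were chosen with earlier results of these data known. One gene of the study's panel is not reported here. Postnatal arrays were not used here.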

Additional observations from a re-analysis of the deposited data

Results flagged for a closer look

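The breed difference of EEF1A2 at 85 d exceeded that at 100 d by 3.10 on the log2 scale (probe A_70_P046666, limma adjusted p = 0.00789), which was tested as a difference between stages.

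In the group of 4 T100 fetuses, 82 items were looked at, which were 81 named probes and the position on the course. Of these, 8, all of them probes, had 1 fetus far from the other 3, where chance gives about 1 in 20. TMOD4 read 14.02 in T100 replicate 2 against 13.44 to 13.51 in the others, and LEF1 (A_70_P068131) read 4.45 there against 5.29 to 5.36. BAC5 read 15.44 in replicate 4 against 10.41 to 11.27, and AQP4 read 11.89 there against 12.28 to 12.34. In replicate 1, which lies on slide 2 while the other 3 lie on slide 3, RPS15 read 6.79 against 7.24 to 7.31, TXNRD1 4.72 against 5.00 to 5.03, and AHSG 4.31 against 1.70 to 1.97. POMC (A_70_P039551) read 9.61 in replicate 3 against 8.80 to 8.94. The groups of 3 at 85 d were not tested in this way.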

How the results depend on the processing

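The number of probes past the unadjusted threshold was 292. It was 83 with normexp, 154 with a floor of 16, 131 by the methods' unequal-variance test and 168 in the 10-group fit with slide, and from 263 to 540 when each fetus was left out in turn. The highest count was without T85 replicate 3, where 248 of the 540 were among the 292. No count is given for the 10-group fit with slide, where the T85 side is replicate 3 alone. The other settings gave 222 to 319. The number past adjustment, 3, was 1 with 75th percentile scaling, 8 with quantiles over 40 arrays, 17 with normexp, 17 with the filter at 85 d, 6 with a floor of 16, 27 in the 10-group fit, 0 by the methods' test (131 unadjusted), 1 with slide as a block and 0 within slide 2 (264 unadjusted), and 1 to 3 without each fetus. With the replicate number as a block the counts were 305 and 1. The labels do not say whether the numbers pair the fetuses. The deviations of fetuses with the same number correlated at -0.04, 0.02 and -0.05, and those with another number at -0.02 to 0.07, which cannot settle it. The count of breed differences that changed with stage was 0 and 1 in all settings run. Without each fetus, EEF1A2 A_70_P046666 differed by 3.74 to 4.08, and its adjusted p was 0.0560 to 0.0864 in 4 of the 6 fits.

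The position difference, 0.06, was 0.17 on the Ujumqin axis, -0.04 on the Texel axis, 0.15 with named probes only, 0.10 with normexp and 0.03 to 0.12 without each fetus. The 731 course probes were 124 at 4-fold, 478 with Ujumqin alone and 995 with Texel alone. The riser median, 0.18, was 0.48 at 4-fold, -0.13 with Texel alone, 0.31 within slide 2 and 0.10 to 0.22 without each fetus. The faller median, -0.05, was -0.55 at 4-fold, -0.24 with Ujumqin alone, 0.08 with Texel alone, 0.01 with 75th percentile scaling and -0.15 to 0.00 without each fetus.

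Of 1779 pairs of a named probe and a setting, 1708 kept direction and side of the adjusted threshold, 27 lost the call, 25 gained it and 19 reversed. None of the reversed differences had been past a threshold. Without each fetus, TSHR A_70_P039326 ranged from -0.04 to 0.60, INSIG1 A_70_P043501 from -0.11 to 0.33, TXNRD1 A_70_P070736 from -0.27 to 0.52 (-0.13 without U85 replicate 3) and CA1 A_70_P039261 from -1.77 to 0.70, and CA1 was at 0.04 with normexp and 0.09 with a floor of 16. With slide as a block, within slide 2 or in the 10-group fit with slide, INSIG1 was at -0.07, TPM2 A_70_P033031 at 0.07, CA1 at 1.47 and HSD11B1 A_70_P051222 at 0.02. The causes were not tested. The within-slide and 10-group slide settings were chosen after seeing the data. Dim probes are limited by their signal over background, and 12235 of the 14379 were well above background on all 6 arrays.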
